A study of Homo sapiens with 6 samples.

Results

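The genes described here carry the family names of the ubiquitin system: UBE2 and UBE3, USP, FBXO, FBXW, FBXL, CUL, KLHL, TRIM and RNF. They were chosen by symbol alone, as every row of the deposited crosslink table whose gene symbol begins with one of these 10 names followed by a digit or letter. The rule itself uses no measured value, though it was set with earlier results of these data known. It gave 288 crosslink sites in 105 genes, of 16230 sites in 4361 named genes. The names are family names and not a test of function. Another 6 sites carry 4 joined names of overlapping genes in which a member stands second, and lie outside the rule.

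The sites come from PAR-CLIP of Argonaute, the protein that holds microRNAs, in wild-type HK2 cells. This established human cell line derives from the proximal tubule of the kidney. For PAR-CLIP, cells incorporate 4-thiouridine into RNA and ultraviolet light fixes it to bound protein, so that the crosslinked thymidine can be located in the reads. The 2 control libraries carry the treatment label control, and the 2 TGF-beta1 libraries came from cells that received this profibrotic cytokine at 20 ng/mL for 24 h. The labels' protocol lists 24 h of serum starvation, 100 uM 4-thiouridine for the last 20 h and light of 365 nm for all libraries. The labels do not say that replicates were separate cultures, so p-values reflect only how far these 4 libraries differ, which may be technical.

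Ubiquitin is passed from an activating enzyme (E1) to a conjugating enzyme (E2, the UBE2 genes) and then, with the help of a ligase (E3), to a protein that is often sent to the proteasome. RNF and TRIM proteins are mostly RING ligases, UBE3 proteins are HECT ligases, and cullins (CUL) are scaffolds of multi-part ligases in which F-box proteins (FBXO, FBXW, FBXL) or KLHL proteins choose the substrate. USP enzymes remove ubiquitin, and in TGF-beta signalling both ligases and deubiquitinases set the amount of receptor and SMAD proteins.

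Recovered library depth was 1714444 and 1926256 reads for the controls and 5293209 and 3415698 reads for the treated libraries, so the treated libraries were the deeper ones. The listed sites held 36958, 53835, 74969 and 72206 crosslinked reads in control 1, control 2, TGF-beta1 1 and TGF-beta1 2, the order used throughout. Of these, 654, 1025, 1193 and 1122 lay in the ubiquitin genes, 3994 of 237968 in all. Levels are given as TMM-scaled RPM, that is, crosslinked reads scaled to the library's total (RPM) with a composition factor. They are not divided by gene length. Covering reads count all reads over a site, but were listed only in libraries with a crosslinked read there. Over all sites they therefore carry the same missing libraries as the crosslinked reads. A level counts Argonaute-bound RNA, so more RNA of a gene and more Argonaute on each RNA cannot be told apart from these levels alone. Nor can fewer cells with the RNA and less RNA in each. The RNA-seq values deposited beside them were not used. The 2 IgG libraries were not analysed here, and no level from them is given as a background. The cell line's own marker genes were not checked, since the table lists bound positions only.

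The sequences at some of the strongly crosslinked sites are given here. Mature microRNAs of the families that recur at these sites are printed from RefSeq (GRCh38.p14), with the seed, bases 2 to 8, in capitals. miR-17-5p and miR-20a-5p share 1 seed.
hsa-miR-30a-5p: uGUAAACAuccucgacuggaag
hsa-miR-17-5p: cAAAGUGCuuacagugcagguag
hsa-miR-20a-5p: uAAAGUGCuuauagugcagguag
hsa-miR-103a-3p: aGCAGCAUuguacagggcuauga
hsa-let-7a-5p: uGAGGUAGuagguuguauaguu
hsa-miR-25-3p: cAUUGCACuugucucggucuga
hsa-miR-181a-5p: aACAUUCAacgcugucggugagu

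The crosslink windows below are 29 nt of the messenger strand on hg38, with the crosslinked T in the middle, 14 nt from either end. They are copied from the deposited table. Capitals mark the stretch that the authors' annotation pairs with a microRNA seed, or the crosslinked T alone where it lists no match. The first 6 are among the 12 member sites with the highest mean level, and the last 4 were added after their values were seen, to show a pair of sites in 1 gene and further coding matches.
USP37 3' UTR, miR-30, chr2:218454245-218454273, minus strand: atttgtgatgtctttgcTGTTTACatgca
UBE2C coding and 3' UTR, miR-103a, chr20:45815871-45815899, plus strand: cccttgaacacacATGCTGCcgagctctg
RNF111 coding, let-7, chr15:59058419-59058447, plus strand: acaattcaaatccatCTACCTCtgagcag
USP42 coding, let-7, chr7:6149875-6149903, plus strand: attctgcagtacagtCTACCTCgaacgca
KLHL11 beyond the annotated 3' UTR, miR-25, chr17:41853273-41853301, minus strand: atctgcaggaggcatGTGCAATagtgaga
RNF145 3' UTR, no match, chr5:159157671-159157699, minus strand: ctgttaatagacttTgcaccttttctttg
USP22 3' UTR, miR-30, chr17:20999770-20999798, minus strand: tttaagtgattgtttTGTTTACtgtaagt
USP22 3' UTR, miR-30, chr17:20999688-20999716, minus strand: tttatttaccaagaTGTTTACtcttcctt
FBXW2 coding, miR-17/20a, chr9:120787789-120787817, minus strand: agtgccagagtgtatGCACTTTactacaa
RNF103 coding, miR-103a, chr2:86604045-86604073, minus strand: acttggcctgctgatATGCTGCactgtac

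In most of these windows the crosslinked T lies just before the capitals or at their first base. Of the 75 member sites with a 7-nt match, 59 (78.7%; Wilson 95% interval 68.1 to 86.4%) had the match begin 0 to 3 nt downstream of the crosslink, and an offset of 1 nt was the commonest, at 45 sites. Over all other genes this share was 69.7% of 2981. These intervals, and those below, cover counting error only and treat sites as independent, although several sites share a gene and no molecular identifiers are named.

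Crosslinks were spread thinly over many of these genes and densely over a few. There was 1 site in 42 genes, 2 or 3 in 41 and 4 or more in 22. The 20 most crosslinked genes held 59.1% of the members' reads, and 8 of them held 38.3%. A member site had a median of 9 reads over the 4 libraries, against 7 at sites of other genes, and 49.7% of member sites were crosslinked in every library, against 37.6% elsewhere. Of the 288 member sites, 26 had no crosslinked read in either control library and 1 had none in either treated library. Over the 16230 sites of the whole table these counts were 1874 and 193. Every listed site was crosslinked in at least 2 libraries. A site without control reads was therefore crosslinked in both treated libraries, which were the deeper ones. A gain or loss of sites was not tested.

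The scaffold and adaptor genes were led by KLHL28, a kelch protein of the family that brings substrates to CUL3. KLHL28 had 21.02 and 31.5 RPM in control cells and 22.7 and 22.8 RPM after TGF-beta1, the highest mean of the 105 genes and rank 131 of all 4361. Both treated values lay within the control range. Its 282 reads came from 10 sites, 7 in the 3' UTR and 3 in coding sequence. The strongest, an annotated match to miR-29 at chr14:44928106, had 15, 18, 27 and 17 reads and 27.3% of the gene's total. The authors' miR-29a seed begins 1 base before that of the RefSeq sequence, so the 3 miR-29 matches of members, in KLHL28, RNF19A and USP1, were called with that shifted seed. A second cluster, 477 to 689 nt upstream of it, held 5 sites, led by one without a match (5, 16, 13 and 13 reads) and with adjacent 7-nt matches to miR-17/20a (2, 9, 13 and 8 reads) and miR-182 (5, 12, 6 and 10 reads). KLHL28 was thus crosslinked at matches to several families and not at 1 dominant position.

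KLHL11 and KLHL15, also of the CUL3 adaptor family, showed the opposite arrangement and an intermediate one. KLHL11 had 2.77, 6.37, 5.11 and 6.83 RPM, with overlapping groups, and 89.1% of its reads lay at the miR-25 match printed above (4, 16, 17 and 20 reads). KLHL15 had 9.40 and 8.999 RPM in control and 7.09 and 5.41 RPM in treated cells, without overlap, over 5 sites in its 3' UTR. The 12 KLHL genes together had 80.3% of their reads in the 3' UTR. CUL genes were sparsely crosslinked: CUL4A, a scaffold of DDB1-containing ligases, had 3.32, 1.87, 4.26 and 1.99 RPM, and CUL3 had 3.32, 1.87, 1.99 and 1.14 RPM. Both pairs of groups overlapped.

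The F-box genes, adaptors of CUL1-type ligases, included genes with coding sites only and genes with intronic sites only. FBXW2 had 5.53, 7.12, 4.82 and 6.26 RPM, with overlapping groups, and all 4 of its sites lay in coding sequence. They include the miR-17/20a match printed above (4, 7, 9 and 12 reads) and a miR-103a match (4, 10, 2 and 6 reads). FBXO32, known as atrogin-1 from wasting muscle, had 3.87 and 4.12 RPM in control and 5.96 and 7.12 RPM after TGF-beta1, with no overlap. Its log2 difference of 0.59 was 0.14 without TMM scaling and -0.18 with covering reads at all sites. The 3 FBXL genes together had 8.30 and 7.87 RPM in control cells and 3.97 and 3.42 RPM in treated cells, also without overlap, a ratio of 0.457. These sums rest on 62 reads, and the exact two-sided permutation test gave p = 0.333, the smallest that 2 libraries against 2 can give. FBXL20, the highest of them, had 2.77, 3.0, 1.42 and 2.28 RPM, and FBXL14, crosslinked at 1 intronic site, had 4.42, 2.62, 1.42 and 0.854 RPM.

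Among RING ligases, RNF145, a sterol-responsive ligase of the endoplasmic reticulum, was the most crosslinked. RNF145 had 19.4 and 19.1 RPM in control and 19.9 and 23.1 RPM in treated cells, which did not overlap (log2 difference 0.15, and -0.37 without TMM scaling). Of its 8 sites, the strongest (9, 12, 27 and 17 reads) carried no listed seed match, and a 7-nt match to miR-17/20a stood 78 nt upstream (5, 10, 13 and 5 reads). RNF103, another ligase of the endoplasmic reticulum, had 16.04, 12.7, 10.2 and 11.1 RPM, with both treated values below both controls. Its 5 sites include a coding 6-nt match to miR-205 (10, 11, 7 and 20 reads), the coding match to miR-103a printed above (8, 11, 12 and 13 reads) and the only 7-nt match to miR-21 among the members (5, 8, 9 and 2 reads).

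RNF139, a sterol-sensing ligase also called TRC8, had the most negative difference among the tested members. Its levels were 9.40 and 7.12 RPM in control cells and 2.84 and 2.85 RPM in treated cells, from 17, 19, 10 and 10 reads at 4 sites. The groups did not overlap, and the log2 difference was -1.26 (SE 0.40, 95% interval -2.14 to -0.37), but limma's adjusted p was 0.151. With covering reads in place of crosslinked reads, at positions crosslinked in all 4 libraries, the difference was 0.34, in the other direction. RNF165, a relative of RNF111 known from BMP signalling, followed with 6.64 and 7.499 RPM against 4.26 and 2.85 RPM (log2 difference -0.84, limma adjusted p = 0.401).

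RNF4, a ligase that recognises SUMO chains, had the largest positive difference, 0.92 on the log2 scale (SE 0.66, limma adjusted p = 0.583). Its levels were 0.553, 6.37, 6.81 and 4.27 RPM, so the difference rests on control 1 with 1 read. Without that library it was -0.19. RNF138, a ligase of DNA end resection, had 3.87, 5.62, 8.51 and 5.12 RPM, with overlapping groups. TRIM28, a corepressor of KRAB zinc finger proteins and the most crosslinked TRIM gene, had 7.19, 4.50, 6.53 and 3.99 RPM, and 7 of its 8 sites were coding. The HECT ligase UBE3C had 4.98, 3.37, 4.54 and 2.85 RPM over 8 sites, 5 of them intronic.

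The conjugating enzymes UBE2D3 and UBE2C, the latter the E2 of the anaphase-promoting complex, had overlapping groups. UBE2D3 stood at 17.1, 13.9, 11.6 and 15.9 RPM, with its strongest 3' UTR sites at a 6-nt match to miR-196 (7, 18, 15 and 23 reads) and at a position without a match (12, 10, 8 and 18 reads). UBE2C stood at 9.95, 15.4, 14.5 and 12.5 RPM, and 65.6% of its reads lay at the miR-103a match that the authors annotated as both coding sequence and 3' UTR (14, 24, 36 and 27 reads). UBE2K, an E2 that builds lysine-48 chains, was crosslinked diffusely. It had 16 sites, 11 of them intronic, and its highest site held 12.9% of its reads. Its levels of 4.98 and 6.37 RPM in control and 8.51 and 8.26 RPM in treated cells did not overlap, with a log2 difference of 0.50 (SE 0.36, limma adjusted p = 0.583). The difference was 0.02 without TMM scaling, and with covering reads it was 1.20 over all sites and 0.07 over positions crosslinked in all 4 libraries.

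Among deubiquitinases, USP37, which protects cyclin A from degradation, held the strongest site of all members. The miR-30 match printed above had 38, 47, 28 and 51 reads, or 78.5% of the gene's total. USP37 as a gene had 25.4 and 21.7 RPM in control and 11.1 and 18.8 RPM in treated cells. The groups did not overlap, yet the treated libraries differed from each other more than the controls did, and the log2 difference was -0.67 (SE 0.31, limma adjusted p = 0.375). It was -0.31 without TGF-beta1 1, -1.02 without TGF-beta1 2 and -1.17 without TMM scaling. At the site alone the log2 difference was -0.67 (SE 0.33, limma adjusted p = 0.259).

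USP22, the deubiquitinase of the SAGA complex, had 16.04, 16.9, 17.0 and 13.7 RPM, with overlapping groups. Its strongest site, without a listed match, had 8, 12, 15 and 9 reads, and the miR-30 matches printed above stood 32 and 114 nt downstream of it. The nearer had 7, 12, 4 and 6 reads and the farther 2, 7, 16 and 13 reads, so the raw counts of this pair ran in opposite directions between groups. Neither site was in the test, and the difference between them was not tested.

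USP1, which acts on FANCD2 and PCNA in DNA repair, was crosslinked mainly in coding sequence, at 8 of 12 sites. Its levels were 17.7 and 17.2 RPM in control and 12.8 and 11.4 RPM in treated cells, without overlap. The log2 difference was -0.50 (SE 0.28, limma adjusted p = 0.486). USP34, known from Wnt signalling, had 10.5, 2.62, 5.96 and 5.41 RPM, so its controls spanned both treated values. USP42, which acts on p53, had 3.32, 8.999, 6.24 and 4.55 RPM, and 80.9% of its reads were at the coding let-7 match printed above (4, 21, 18 and 12 reads).

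**Figure D1:**
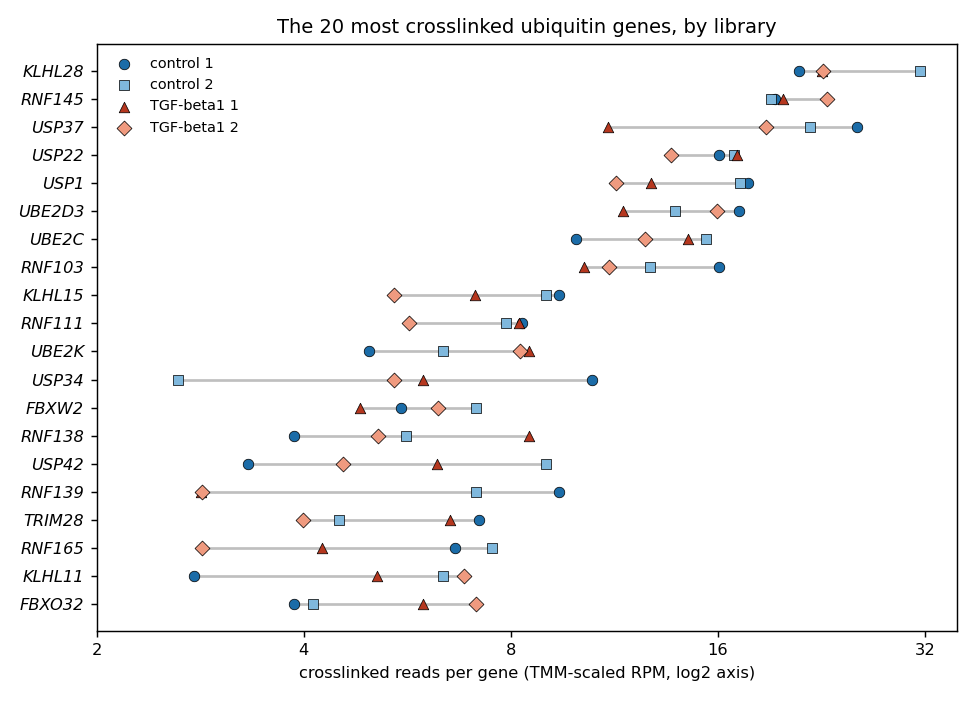
TMM-scaled RPM of crosslinked reads (log2 axis) for the 20 members with the highest mean, with 1 point per library and a grey line from the lowest to the highest library. KLHL28, RNF145 and USP37 lead, RNF139, USP37, USP1, RNF103, KLHL15 and RNF165 have both treated points below both control points, FBXO32, UBE2K and RNF145 have both above, and the groups of the other 11 genes overlap.

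**Figure D2:**
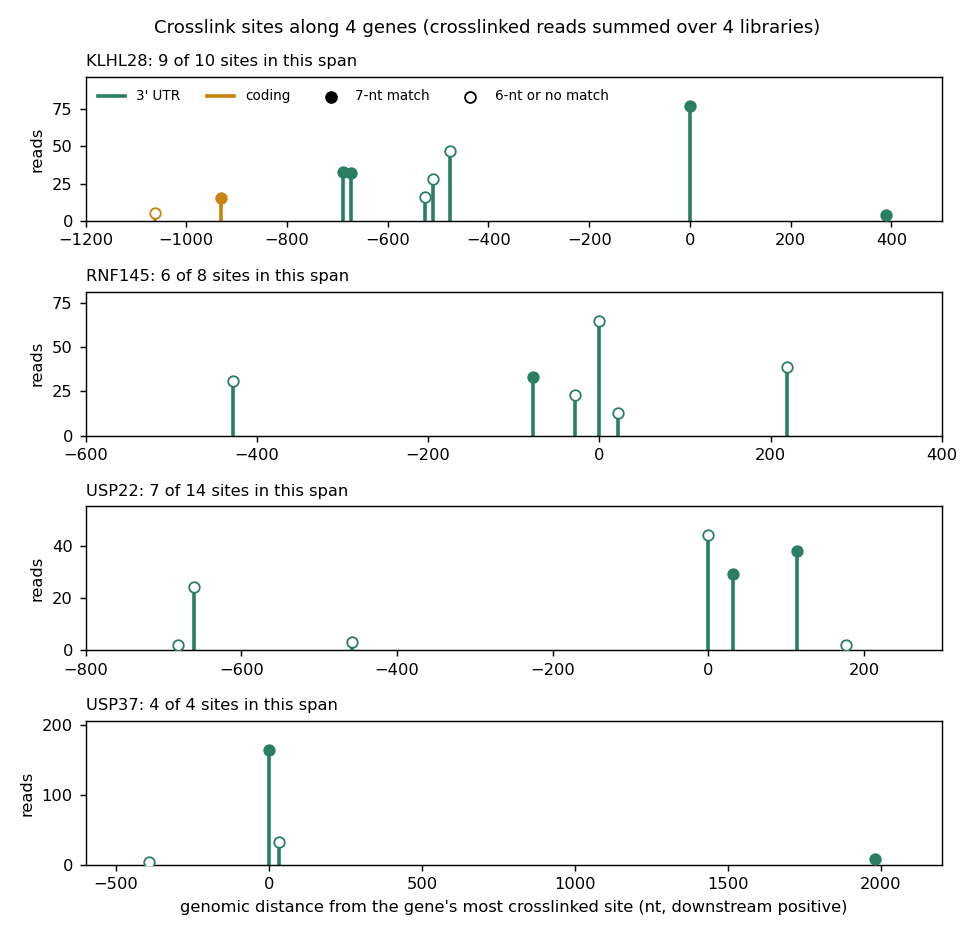
Crosslinked reads summed over the 4 libraries at each site (vertical axis) against genomic distance in nt from the gene's strongest site (horizontal axis) for KLHL28, RNF145, USP22 and USP37; filled points carry a 7-nt seed match and open points a 6-nt match or none. USP37 has 1 dominant site with 164 reads, followed by one with 33. The strongest and next sites hold 77 and 47 reads in KLHL28, 65 and 39 in RNF145 and 44 and 38 in USP22.

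Genes of TGF-beta and SMAD signalling were taken from a list of 10, of which 8 had a site. The list does not include RNF165, described above as known from BMP signalling. RNF111, or Arkadia, the ligase that removes the SMAD repressors SKI and SKIL, had 8.30, 7.87, 8.23 and 5.69 RPM. Its reads were nearly all (88.2%) at 1 coding let-7 match, with 14, 18, 27 and 16 reads, and the gene's groups overlapped (log2 difference -0.21, SE 0.36, limma adjusted p = 0.840). USP9X, a deubiquitinase of SMAD4, had 4.42, 3.0, 3.97 and 6.26 RPM (log2 difference 0.37, SE 0.43, limma adjusted p = 0.775). Its difference was 0.09 without TGF-beta1 2, 0.15 without control 2, 0.59 without control 1, 0.66 without TGF-beta1 1 and -0.05 without TMM scaling. The other 6 were too sparse to test: RNF11 had 20 reads, FBXW7 12, USP11 11, USP15 9, CUL1 7 and TRIM33 4. USP4 and UBE2O had no listed site. Of the 2 tested genes 0 passed with limma (background 3.08% of tested genes), and 0 had an unadjusted p under 0.05 (background 13.8%), so a count of 0 does not set them apart from the background.

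Across the tested members no difference after TGF-beta1 was called. Enough reads for the test were present in 27 of the 105 genes, which had at least 44 reads each, while 78 genes, with up to 50 reads, did not pass the filter on low counts. With limma on log2(scaled RPM + 1) and Benjamini-Hochberg adjustment over all 1266 tested genes, 0 of the 27 passed 0.05, against a background of 3.08% of tested genes called. At an unadjusted p under 0.05 the count was 1 (RNF139), where the background was 13.8%. The edgeR quasi-likelihood test and DESeq2, on reads recovered from the RPM values, also called 0 members, where 3.79 and 2.29% of all genes were called. At an unadjusted p under 0.05 they gave 1 member each, against 13.2 and 7.82% of all genes.

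The members' median log2 difference was -0.15, with quartiles of -0.29 and 0.13, and 10 lay above 0 and 17 below. The median over all tested genes was 0.02, with quartiles of -0.34 and 0.37. The median absolute difference was 0.27 for the members (median SE 0.40) and 0.36 over all tested genes (median SE 0.40). Groups did not overlap for 9 of the 27 (background 43.6%), of which 3 were higher (background 20.5%) and 6 lower (background 23.1%) after TGF-beta1. The higher ones were UBE2K, FBXO32, which turned with covering reads at all sites (-0.18), and RNF145, which turned without TMM scaling (-0.37). The lower ones were RNF139, which turned with covering reads at positions crosslinked in all 4 libraries (0.34), RNF165, USP37, KLHL15, USP1 and RNF103.

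Single sites gave the same count. Of 17 member sites tested, 0 passed limma's adjusted p of 0.05 (background 7.18% of 1059 sites), and 0 had an unadjusted p under 0.05 (background 19.3%). The groups did not overlap at 5 sites (background 48.3%), each of them lower after TGF-beta1 (background 24.5%). The median log2 difference was -0.24 at these 17 sites and 0.05 over all tested sites.

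**Figure D3:**
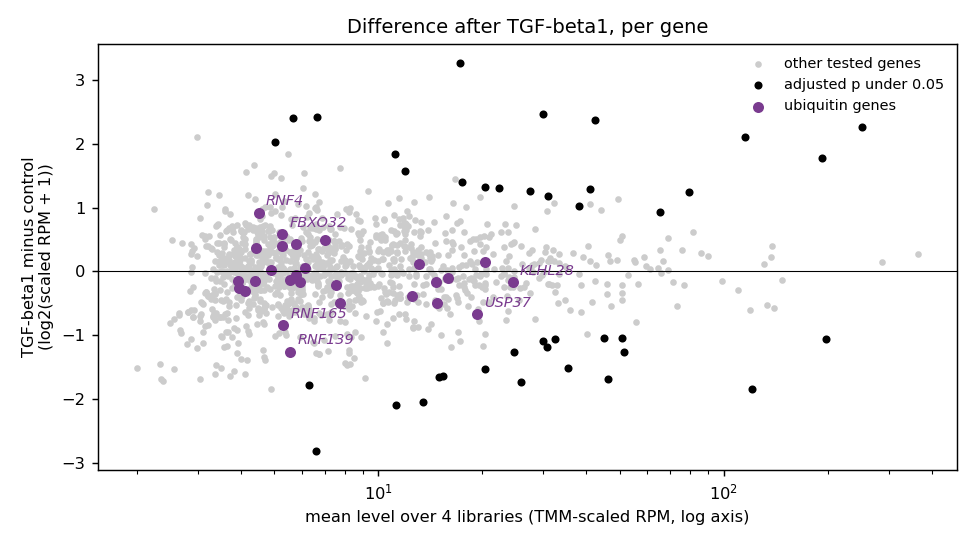
Log2 difference between TGF-beta1 and control (vertical axis) against mean scaled RPM (log axis) for the 1266 tested genes; purple points are the 27 tested members, and black points are the 39 genes called, none of them a member. The members lie within the cloud of uncalled genes, between -1.26 (RNF139) and 0.92 (RNF4).

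As a group, the ubiquitin genes took 1.77 and 1.90% of all listed crosslinked reads in control cells and 1.59 and 1.55% in treated cells. The treated shares lay below the controls, at 1.57% ± 0.026 against 1.84% ± 0.095 (SD, n = 2), and the exact two-sided permutation test gave its smallest possible p of 0.333. The RPM of the USP genes summed to 100.1 and 97.1 in control and 79.2 and 80.8 in treated cells, without overlap. Those of the RNF genes were 95.7, 105.7, 95.04 and 87.97, those of the UBE2 genes 58.1, 69.7, 62.1 and 56.9, and those of the KLHL genes 49.8, 57.4, 48.5 and 47.3. The 8 FBXO genes summed to 9.95 and 10.1 in control and 14.5 and 11.1 in treated cells. Without TMM scaling the UBE2, UBE3 and CUL sums were also lower in both treated libraries and the TRIM, USP, KLHL, RNF and FBXL sums remained so. That setting moves the median log2 difference of all tested genes to -0.45, so a lower sum there does not set a family apart. With TMM scaling the USP, KLHL, TRIM, RNF and FBXL sums were lower in both treated libraries and the FBXO sum was higher. Each had exact two-sided permutation p = 0.333, the smallest possible. Groups did not overlap for 43.6% of single tested genes, and no such share was taken for sums of other genes. The UBE2, UBE3, FBXW and CUL sums overlapped. Without TMM scaling the FBXO sums were 10.5, 14.02, 9.64 and 11.4, and these groups overlapped with the treated mean the lower. A few genes carry much of the FBXO, USP and KLHL differences. The control and treated means were 10.04 and 12.8 for FBXO and 4.00 and 6.54 for FBXO32. They were 98.6 and 80.0 for USP, 23.6 and 14.9 for USP37 and 17.5 and 12.1 for USP1. For KLHL they were 53.6 and 47.9, with 26.3 and 22.7 for KLHL28 and 9.20 and 6.25 for KLHL15.

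No change in the region of the reads was shown. The 3' UTR held 59.9 and 64.3% of the members' reads in control and 59.9 and 60.0% in treated cells (exact two-sided permutation p = 0.667). Coding sequence held 26.1, 24.2, 23.8 and 24.96%, and introns 9.02, 6.63, 10.3 and 8.82%. Among reads assigned to regions of messengers, coding sequence took 26.2, 24.3, 23.9 and 25% in the ubiquitin genes and 19.7, 17.7, 21.5 and 21.1% in all other genes. By reads, the coding share was higher in the ubiquitin genes in each of the 4 libraries. By sites it was not: coding sequence held 25.3% of the members' 288 sites and 26.2% of the 15942 other sites. The 3' UTR held 49.7 and 38.8% of these sites. The site shares are of all listed sites, not of messenger sites alone. A site lay in the 3' UTR in 73 genes, in coding sequence in 36 and in an intron in 30, and 11 genes had intronic sites only.

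**Figure D4:**
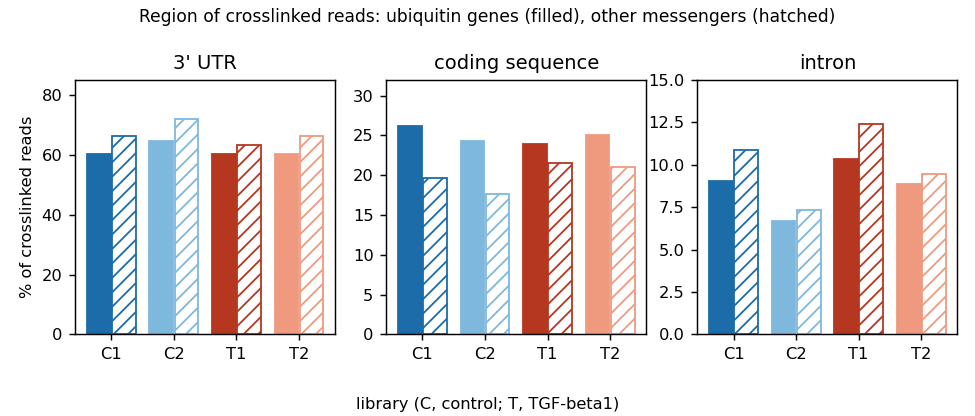
Percent of crosslinked reads at messenger sites (vertical axis, a separate scale in each panel) that lay in the 3' UTR, coding sequence and introns, for each library; filled bars are the ubiquitin genes and hatched bars all other genes. In every library the filled coding bar is the taller and the filled 3' UTR bar the shorter of its pair. Counted by sites, as given in the text, neither holds.

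MicroRNA seed matches were common at the coding sites of the ubiquitin genes. A 7-nt match in the authors' annotation, the complement of mature bases 2 to 8 for most families, was present at 26 of 73 coding sites in 19 genes (35.6%; Wilson 95% interval 25.6 to 47.1%). Other genes had 634 of 4178 (15.2%; 14.1 to 16.3%). By reads, 42.1, 53.6, 49.3 and 48.9% of the members' coding reads were at such a match, against 25.6, 30.6, 24.0 and 26.1% in other genes. In the 3' UTR the shares of sites were close, 42 of 143 (29.4%) against 26.95%, and in introns they were 5 of 61 (8.20%) against 10.95%. These shares are descriptions, and the difference between gene groups was not tested.

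The coding matches with the most reads were those of RNF111, USP42, RNF103 and FBXW2 printed above. Others with at least 20 reads were a miR-30 match in RNF219 (3, 4, 7 and 12 reads), a miR-181 match in KLHL28 (3, 5, 6 and 11), a miR-25 match in USP38 (3, 9, 5 and 5), the miR-103a match in FBXW2 and a miR-25 match in USP9X (1, 5, 5 and 10). They were listed after their values were seen. The crosslinked share of covering reads, a measure apart from the seed annotation, had a median of 41.1% at the 38 coding sites of members crosslinked in every library and of 30.8% at 1356 such sites of other genes, with overlapping quartiles (26.5 to 61.4% and 15.6 to 51.5%). In the 3' UTR the medians were 40.0 and 39.3%, and in introns 39.7% at 6 member sites and 46.7% at other genes' sites.

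The miR-30 family was the most frequent at the members' 7-nt matches. It had 14 of 75 matches (18.7%) in 13 genes, 13 of them in the 3' UTR, against 230 of 2981 (7.72%) in other genes. Its share of reads at 7-nt matches was 26.9, 24.4, 20.2 and 27.1% in the ubiquitin genes and 7.58, 7.5, 8.92 and 9.44% in other genes. USP37 carried much of this, and without it, an alternative added after the data were seen, the members' shares were 13.95, 15.3, 15.3 and 17.8%. The genes with a miR-30 match included FBXO32, FBXO34, RNF213, RNF219, RNF220, RNF44, UBE2G1, UBE3C, USP14, USP22, USP37 and USP48. Whether the family is more frequent in ubiquitin genes than in other genes was not tested.

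Other families were spread over many genes. miR-181 had 7 matches in 7 genes, and miR-17/20a, the microRNAs named in the study's title, had 7 in 6 genes: FBXO30, FBXW2, KLHL2, KLHL28, RNF145 and UBE2W. Their reads at these sites were 18, 40, 42 and 34, or 9.96, 13.8, 12.9 and 9.71 RPM, with overlapping groups. miR-103a had 6 matches, let-7 and miR-25 had 5 each and miR-27 had 4. miR-21 had 1, in RNF103. In all, 23 of the 42 families of the table had a 7-nt match in a member, in 50 genes. Sites with a 7-nt match had a median of 14 reads, those with a 6-nt match 9 and those without a match 6.

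**Figure D5:**
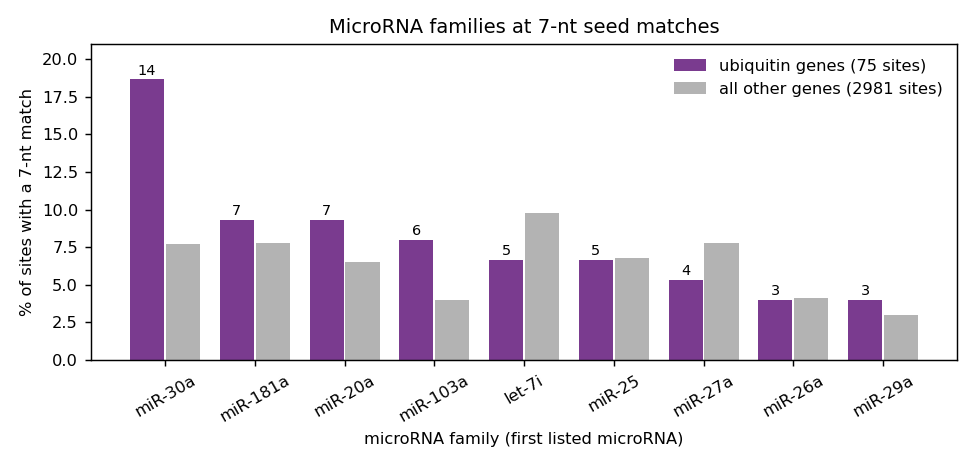
Percent of sites with a 7-nt match (vertical axis) that belong to each microRNA family with at least 3 member sites, for ubiquitin genes (purple, with the number of sites) and all other genes (grey). The miR-30 family stands at 18.7 against 7.72%, and let-7 at 6.67 against 9.80%.

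Ubiquitin genes outside the 10 name groups were looked at in 3 lists. None of the tested genes passed in any list with limma: 0 of 7 for E1, ubiquitin and cullin machinery, 0 of 13 for other ligases and 0 of 3 for other deubiquitinases, with 0, 1 and 1 at an unadjusted p under 0.05. Over all tested genes 3.08% were called and 13.8% had such a p. Lists of 3, 7 and 13 tested genes are too small to be set above or below these shares. A site was present for 29 of 50, 37 of 76 and 12 of 29 listed genes. KBTBD2, a KLHL-like adaptor, had 9.40, 21.7, 16.5 and 13.1 RPM, DCAF7 7.74, 16.9, 11.9 and 16.5, and SKP2, an F-box protein, 9.40, 9.37, 7.09 and 5.41. Only the groups of SKP2 did not overlap (log2 difference -0.53, limma adjusted p = 0.547).

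The unadjusted results were SMURF1 and OTUD4. SMURF1, a HECT ligase for SMADs and TGF-beta receptors, had 8.85 and 8.62 RPM in control and 15.3 and 14.5 RPM in treated cells, without overlap (log2 difference 0.71, SE 0.30, limma adjusted p = 0.297). The difference was 0.21 without TMM scaling and 0.19 with covering reads at all sites. OTUD4, a deubiquitinase of the OTU family, had 14.4 and 15.4 RPM in control and 6.24 and 6.26 RPM in treated cells (log2 difference -1.13, SE 0.31, limma adjusted p = 0.0936). It passed when 3' UTR sites alone were tested (log2 difference -1.01, limma adjusted p = 0.0447), a setting that called 8.88% of genes. All 7 OTUD4 sites lie in the 3' UTR, so that setting used the same OTUD4 reads. Only the set of tested genes, and with it the scaling and adjustment, differed. Of the other highest genes, RBBP6 at 15.5, 26.2, 15.9 and 18.8 RPM and MDM4 at 12.2, 13.1, 11.6 and 12.2 had overlapping groups. YOD1 stood at 23.8, 26.6, 21.3 and 20.8 (log2 difference -0.25) and UCHL1 at 4.42, 5.62, 4.26 and 2.56 (log2 difference -0.47). Both had treated values below both controls, as 23.1% of all tested genes did.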

How the data were processed

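The authors deposited, per site and library, covering and crosslinked reads in RPM, scaled to library reads, per the file headers. They also deposited a score, 1 at every site of a second list, and other annotation columns: gene, region, microRNA seed and sequence window. STAR 2.7.1a, bcl2fastq 2.20.0.422, bedtools and hg38 are named in the submitters' processing notes and GENCODE release 27 in the file headers; the crosslink caller is not given in the sources used here. RNA-seq values in 4 columns were not used.

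All RPM values were whole multiples of 1 read (100% within 0.1 reads), which gave reads and depth. A gene's value is the sum of its sites. The two-sided test was limma 3.58.1, with a variance trend, on log2 of TMM-scaled RPM plus 1, at an adjusted p under 0.05 and after edgeR's filterByExpr (minimum count 10), in R 4.3.3. It was also run on simulated counts of fixed dispersion, and the outcome is not reported here. Fits covered all genes and sites. Log2 differences on this scale understate the change of low genes. Alternatives included edgeR 4.0.16 and DESeq2 1.42.0 on recovered reads. Shares were compared by exact permutation.

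Named were members past the test, the 20 highest, the 5 largest differences each way, the highest of each name group, the TGF-beta list, the 12 highest sites and, per further list, calls and the 3 highest; others are marked in the text. Members and lists were chosen with earlier results of these data known. Of the symbols, 103 are current in RefSeq and 2 older. Same-numbered libraries correlated in their deviations at 0.131 (genes) and 0.117 (sites) over 2 pairs only, so numbers were not taken as pairs.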

Additional observations from a re-analysis of the deposited data

How the results depend on the processing

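No member gene or site passed under any of 14 alternatives, including the replicate block (0 genes and 0 sites); the smallest limma adjusted p was 0.0568 for genes (RNF139, without TMM scaling) and 0.0577 for sites. With 1 library left out, the treated minus control difference was -0.331 to -0.197 percentage points for the members' share of reads (-0.264 with all 4) and -4.34 to 0.0187 for their 3' UTR share (-2.16 with all 4), the last without control 2. Log2 differences turned sign without TMM scaling, which moves the median of all genes to -0.45, for KLHL11 (-0.062), RNF138 (-0.048), USP9X (-0.053) and RNF145 (-0.372), and the difference of the FBXO sums became -1.73 RPM (2.75 with TMM), an alternative added after the data were seen. They did so without control 1 for KLHL11 (range without 1 library -0.083 to 0.862) and RNF4 (-0.191 to 1.972) and without TGF-beta1 2 for RNF111 (-0.448 to 0.023). With covering reads they did so for FBXO32 (-0.178, all sites) and RNF139 (0.344, positions crosslinked in all 4 libraries); the cause was not tested. The mean miR-30 share of reads at 7-nt matches fell from 24.6 to 15.6% without USP37. Over all genes, 39 calls became 3 without the variance trend, 4 without the filter, 84 and 25 with covering reads at positions crosslinked in all 4 libraries and at all sites, 70 with 3' UTR sites only and 0 to 17 without 1 library; over all sites, 76 became 25, 0, 202, 0, 82 and 3 to 116. With the replicate block they were 57 and 117, and without TMM scaling 29 genes (6 higher) and 28 sites (4 higher) against 20 and 39 higher. DESeq2 called 42 sites. The treated libraries are deeper, and 78 members had too few reads to test.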
